A study of Homo sapiens with 15 samples.

Results

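The comparison set HepG2 cells exposed for 72 h to 250 µM TCEP against HepG2 cells exposed for 72 h to 25 µM TCEP. TCEP is a chlorinated organophosphate ester used as a flame retardant, and HepG2 is a human hepatoma line that keeps many hepatocyte genes active. Members were the 3 libraries titled for each concentration, 6 of the 15 in the series. The other 9 libraries were 3 of cells given 0.1% DMSO, the solvent, and 3 each of cells given 25 or 2.5 µM TCIPP, a related chlorinated ester, all for 72 h. Per the submitters' design text, the 3 cultures of a group were seeded, treated and extracted separately. All libraries came from 1 cell line, so the p-values speak for cultures of that line only. Replicate number was part of the fit, so the p-values measure the spread left after differences shared by a number were taken out. PolyA RNA was sequenced, and the level of a gene is given in CPM, its exon reads scaled to the library total with TMM factors.

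Several well-known stress and nutrient programmes can be read from such profiles. When amino acids are short or the endoplasmic reticulum is stressed, the transcription factor ATF4 raises genes that make amino acids, carry them into the cell and load them onto tRNA. When oxygen is short, hypoxia-inducible factors raise glucose transporters, glycolytic enzymes and prolyl hydroxylases. The factor NRF2 drives enzymes that handle oxidants and electrophiles, among them aldo-keto reductases and the subunits that make glutathione.

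Depth was 6629440 to 20981281 exon reads per library at 250 µM and 9049712 to 14727542 at 25 µM. A number of 3 reads, the limit that a count of 0 allows, correspond to 0.143 to 0.453 CPM in these 6 libraries, for counting error only. Mitochondrial transcripts took 6.47 to 6.79% of exon reads at 250 µM and 5.91 to 6.54% at 25 µM. All 12 hepatocyte markers looked up were read, with a summed level of 50946 to 55838 CPM at 250 µM and 54847 to 55244 CPM at 25 µM. Of 10 fibroblast or stellate markers, COL1A2, COL3A1, LUM, DCN and THY1 were at 0 in all 6 libraries, and the sum was 59.2 to 66.4 CPM at 250 µM and 53 to 65.5 CPM at 25 µM. Endothelial markers summed to 1.88 to 2.55 CPM at 250 µM and 3.32 to 4.38 CPM at 25 µM, with KDR, CLEC4G and STAB2 at 0 in both. Lymphocyte markers summed to 4.16 to 4.68 CPM and 5.56 to 6.75 CPM, with PTPRC, CD3E and MS4A1 at 0. The macrophage sum of 4308 to 4802 CPM came almost wholly from LYZ, with ITGAM at 0 in both groups. Cholangiocyte markers summed to 1481 to 1683 CPM at 250 µM and 1451 to 1604 CPM at 25 µM, with CFTR at 0. Of the markers tested, FGB, TF and AHSG of 11 for hepatocytes, EPCAM and KRT19 of 4 for cholangiocytes and CD68 of 3 for macrophages were lower at 250 µM, and PDGFRB of 4 for fibroblasts was higher; the part of these in the results was not tested. Only 4.95% of the exon reads of CD68 were unique, so its value is uncertain. In bulk RNA, fewer cells with a transcript and less of it per cell cannot be told apart.

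Replicate 2 stood apart in both TCEP groups. Among the genes that tested lower at 25 µM, replicate 2 was the lowest library of both TCEP groups for 276 of 365 (75.6%), against 20.6% of all genes tested. Among the genes that tested higher at 25 µM, it was the highest of both groups for 297 of 481 (61.7%), against 20.5% of all genes tested. The same position held in the DMSO libraries as well for 139 of the 365 genes (38.1%) and 161 of the 481 (33.5%). Over all genes tested these shares were 7.2% and 7.3%. Thus the libraries numbered 2 lay toward the 25 µM side at both concentrations. The cause was not tested. The replicate number entered the fit as a block, and each fold change is therefore a mean over 3 pairs.

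Of 12321 genes tested with edgeR's quasi-likelihood method, 846 (6.87%) passed an adjusted p of 0.05. Levels were higher at 250 µM for 365 genes (2.96%) and higher at 25 µM for 481 (3.90%). Most differences were small. The median absolute log2 fold change of called genes was 0.26 in each direction, and 10 genes at 250 µM and 11 at 25 µM differed by 2-fold or more. All 3 pairs moved the same way for 361 of the 365 and 478 of the 481, against 42.5% of all genes tested. The 2 groups did not overlap for 172 and 285 of them, against 7.43% and 7.61% of all genes tested. The genes were called from these same pairs, so such agreement is partly built in and is no separate support. Without the replicate block, edgeR called 0 genes, with 1173 at an unadjusted p under 0.05. All 846 kept their direction, which was nearly fixed in advance, since the fold changes came from the same counts. With library totals alone in place of TMM, 489 genes were higher at 250 µM and 393 at 25 µM. Leaving out 1 library gave 436 calls without 250 µM replicate 1 and 443 without 25 µM replicate 1, and 873 and 889 without replicate 2 of 250 and 25 µM.

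**Figure D1:**
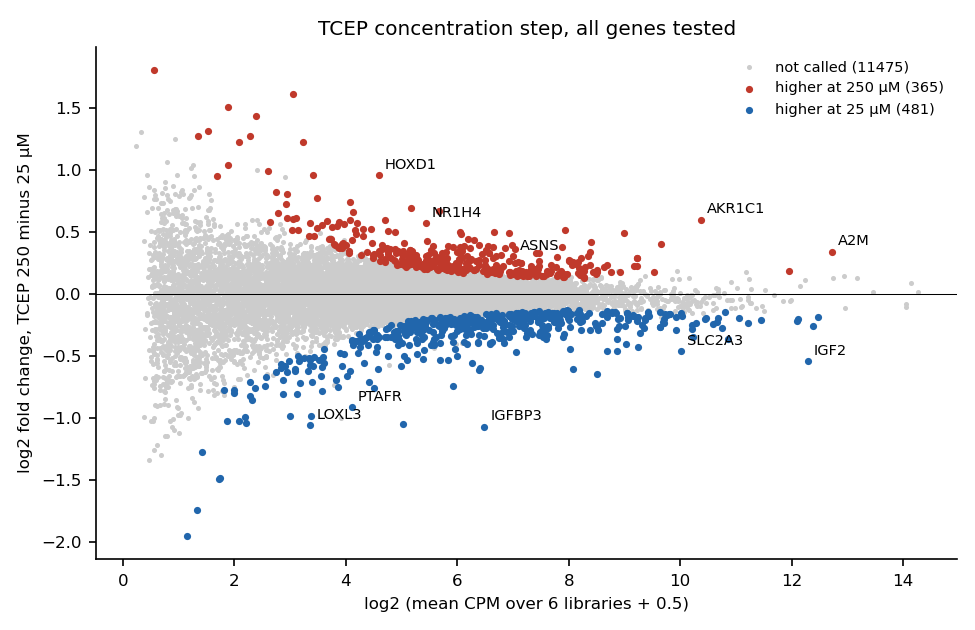
Each point is a gene tested: the x axis gives log2 of its mean CPM over the 6 TCEP libraries plus 0.5, and the y axis its log2 fold change, 250 minus 25 µM. The 365 red genes were higher at 250 µM and the 481 blue genes higher at 25 µM, most by well under 2-fold.

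Genes of the ATF4 amino acid response were higher at 250 µM. Of 37 members tested, 21 passed in that direction and 0 in the other, and 35 lay above 0; the median log2 fold change was 0.22, against 0.00 over all genes tested. ASNS, asparagine synthetase (hg19 chr7:97481430-97501854), was at 112, 108 and 121 CPM at 25 µM and at 150, 135 and 140 CPM at 250 µM in replicates 1 to 3. Its groups did not overlap, and it rose by 0.31 ± 0.05 (SE) on the log2 scale (edgeR adjusted p = 0.000461). In DMSO, ASNS was at 91.9, 109 and 99.8 CPM, below every 250 µM library.

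PSAT1, an aminotransferase of serine synthesis, was at 297, 258 and 329 CPM at 25 µM and 386, 351 and 385 CPM at 250 µM (log2 fold change 0.34 ± 0.04, edgeR adjusted p = 0.000148). PHGDH and SHMT2, of the same serine and one-carbon route, rose by 0.25 and 0.26. MTHFD2, a mitochondrial folate enzyme, rose by 0.22, and CTH, which makes cysteine, by 0.29. Each of these 5 genes passed the test; they are examples from the ATF4 list, not a list of their own.

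SLC6A9, a glycine transporter, was at 13.7, 10.7 and 12.4 CPM at 25 µM and 23.8, 17.0 and 20.9 CPM at 250 µM, the widest change among called members (0.74 ± 0.10, edgeR adjusted p = 0.000161). SLC3A2, SLC1A4 and SLC1A5, which carry neutral amino acids or anchor such carriers, rose by 0.25, 0.28 and 0.18. SLC7A11, the cystine importer, was 0.49 higher, but only 20.7% of its exon reads were unique, so its value is uncertain. ATF4 itself rose by 0.23 ± 0.04 (edgeR adjusted p = 0.00142), with 552, 538 and 504 CPM at 25 µM and 653, 638 and 580 CPM at 250 µM. TRIB3, a pseudokinase that ATF4 induces, rose by 0.33, and CEBPB, a transcription factor, by 0.44. DDIT3, the factor CHOP, did not pass (0.25 ± 0.12, edgeR adjusted p = 0.253).

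The cytosolic aminoacyl-tRNA synthetases, which load amino acids onto tRNA, did not all move the same way. Of 20 tested, 6 rose and 1 fell, 14 were positive and 6 negative, and the median was 0.09. MARS rose by 0.33, GARS by 0.29, YARS by 0.26 and WARS by 0.39, whereas DARS fell by 0.20. The threonine enzyme TARS had a log2 fold change of -0.01. Of 31 unfolded protein response genes, 7 rose and 2 fell, with CRELD2 at 0.44, XBP1 at 0.26 and HSP90B1, a chaperone, at -0.24. Without replicate 1 of either concentration, 1 gene of this list rose. ADM2, a secreted peptide, rose by 0.58, from 12.8, 8.99 and 12.1 to 19.6, 14.9 and 16.8 CPM.

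The window before the start of ASNS is shown because it holds the letters TGATGNAA, a composite element of the kind ATF4 binds. The motif is in capitals, and the sequence is RefSeq's, on the minus strand of GRCh38.p14 chr7:97872409-97872658.
ASNS: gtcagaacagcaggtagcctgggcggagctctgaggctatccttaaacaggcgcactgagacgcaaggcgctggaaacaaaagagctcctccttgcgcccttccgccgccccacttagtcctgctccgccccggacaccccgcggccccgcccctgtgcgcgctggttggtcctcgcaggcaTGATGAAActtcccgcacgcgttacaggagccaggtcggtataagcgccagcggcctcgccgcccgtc
Both strands were searched in 250 bases before each start. The letters were in 3.19% of 27305 promoters, in 1.38% of the tested genes with a window, and in 3 of 29 list members with a window, and 1 of the 16 called ones. A match describes letters only and does not show binding.

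Genes of the hypoxia response were lower at 250 µM than at 25 µM. Of 40 tested, 0 rose and 18 fell, 2 had a positive fold change, and the median was -0.20. IGFBP3, a binding protein of insulin-like growth factors (hg19 chr7:45951949-45961473), had the smallest p of all genes. It was at 84.0, 174 and 104 CPM at 25 µM and at 36.6, 81.5 and 53 CPM at 250 µM, and fell by 1.07 ± 0.05 on the log2 scale (edgeR adjusted p = 2.19e-09). The highest 250 µM library, replicate 2, lay just below the lowest 25 µM library, replicate 1, and 3 of 3 pairs fell. In DMSO, IGFBP3 was at 30.4, 66.8 and 37.6 CPM, again with replicate 2 highest.

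SLC2A3, a glucose transporter, was at 979, 1349 and 1258 CPM at 25 µM and 682, 1019 and 919 CPM at 250 µM (-0.46 ± 0.04, edgeR adjusted p = 5.21e-06). Its groups overlapped, since replicate 2 was high at both concentrations, but it fell in 3 of 3 pairs. EGLN3, an oxygen-dependent prolyl hydroxylase, fell by 0.53, from 58.9, 78.4 and 65.3 CPM to 37.7, 51.3 and 49.1 CPM. CA9, a carbonic anhydrase, fell by 0.50 and NDRG1 by 0.43, both without overlap.

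ERO1L, which oxidises protein thiols in the endoplasmic reticulum, was at 389, 565 and 475 CPM at 25 µM and 278, 424 and 340 CPM at 250 µM (-0.46 ± 0.04, edgeR adjusted p = 3.62e-06). LOX, lysyl oxidase, cross-links collagen and was at 169, 244 and 215 CPM at 25 µM and 133, 184 and 174 CPM at 250 µM, a fall by 0.35. VEGFA, the angiogenic growth factor, fell by 0.29, and BNIP3, a mitochondrial autophagy receptor, also by 0.29. HIF1A mRNA had a log2 fold change of 0.00 and an edgeR adjusted p of 0.972, and ADM, adrenomedullin, did not pass (-0.18, edgeR adjusted p = 0.0912). The mRNA of the factor subunit was thus not called, in contrast to 18 genes of the list.

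The windows of ERO1L and LOX are shown because both hold ACGTG, the core letters of a hypoxia response element, in capitals on either strand. Both lie on the minus strand of GRCh38.p14, at chr14:52695559-52695808 and chr5:122078260-122078509, and are from RefSeq.
ERO1L: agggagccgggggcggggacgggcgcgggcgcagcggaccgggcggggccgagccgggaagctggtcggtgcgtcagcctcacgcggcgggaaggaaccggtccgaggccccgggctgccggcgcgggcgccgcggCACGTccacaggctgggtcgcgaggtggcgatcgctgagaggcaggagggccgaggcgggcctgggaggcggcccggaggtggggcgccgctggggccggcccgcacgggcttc
LOX: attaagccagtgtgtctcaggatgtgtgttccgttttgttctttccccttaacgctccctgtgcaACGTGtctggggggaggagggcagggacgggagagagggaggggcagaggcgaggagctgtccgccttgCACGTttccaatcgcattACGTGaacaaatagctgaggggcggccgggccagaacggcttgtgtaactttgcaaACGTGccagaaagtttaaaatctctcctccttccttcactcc
LOX has 4 matches and ERO1L has 1. ACGTG was in 18.7% of all promoters, in 23.9% of tested genes with a window, in 16 of 32 list members and in 7 of the 14 called members with a window.

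Of 27 glycolysis genes, 12 fell and 1 rose, with a median of -0.14. PGK1, phosphoglycerate kinase, was at 1291, 1510 and 1238 CPM at 25 µM and 967, 1129 and 1081 CPM at 250 µM (-0.34 ± 0.05, edgeR adjusted p = 0.000266). HK2, hexokinase, fell by 0.32, GAPDH by 0.22, ENO1 by 0.21 and TPI1 by 0.14, while ENO3, the muscle-type enolase, rose by 0.37. SLC2A3, PFKFB4 and PDK1 stand in the hypoxia list too. Without replicate 1 or replicate 2 of either concentration 6 glycolysis genes fell, and without replicate 3 of either 16 did.

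**Figure D2:**
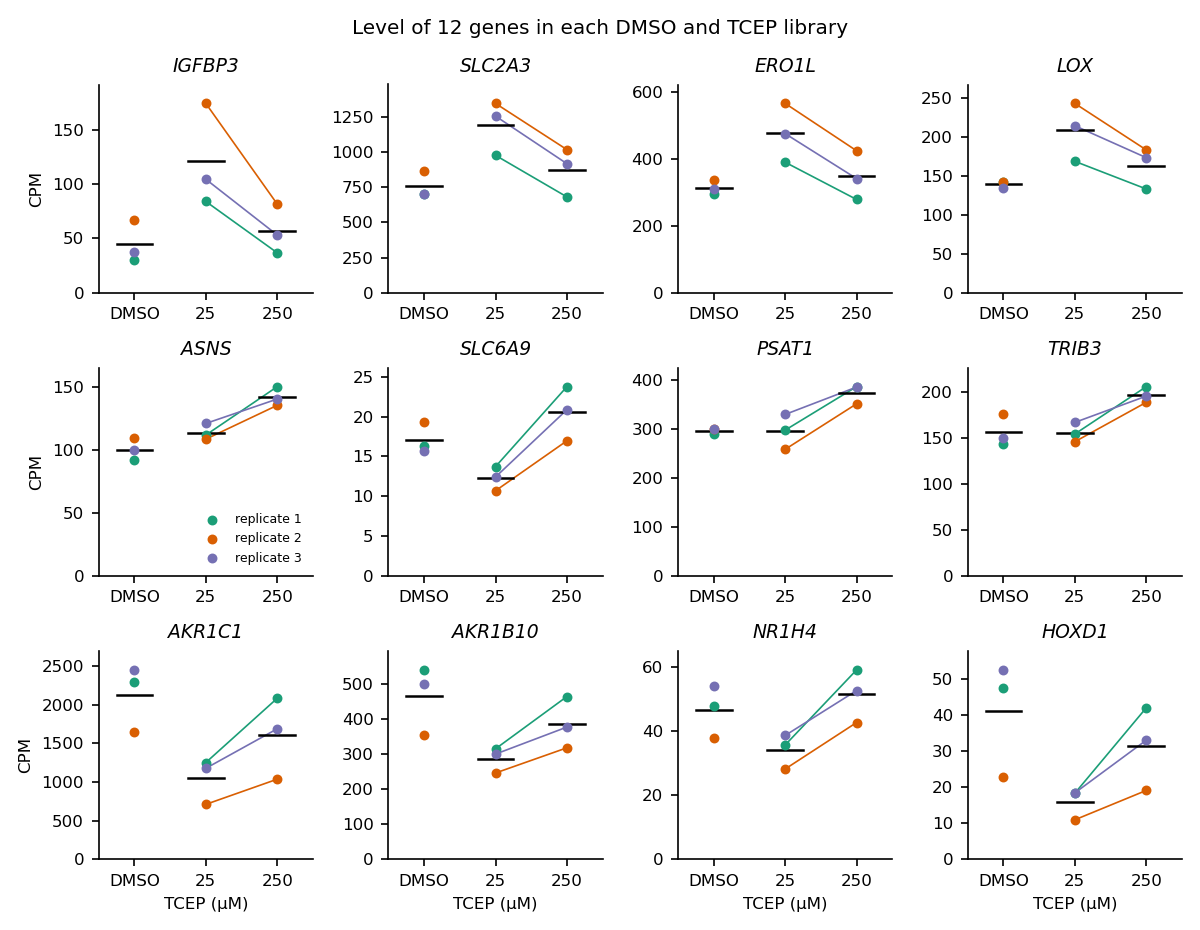
CPM of 12 genes in each DMSO, 25 µM and 250 µM library. Points are libraries coloured by replicate number, and black bars are group means. Thin lines join the 25 and 250 µM libraries with the same number, and DMSO libraries are not joined. IGFBP3, SLC2A3, ERO1L and LOX fell in every pair and the other 8 genes rose in every pair. Replicate 2 was highest at both concentrations for each gene that fell and lowest at both for each gene that rose.

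NRF2 target genes were mostly higher at 250 µM. Of 37 tested, 16 rose and 1 fell, 31 were positive, and the median was 0.12. AKR1C1, an aldo-keto reductase, was at 1252, 710 and 1178 CPM at 25 µM and 2087, 1037 and 1691 CPM at 250 µM (0.60 ± 0.05, edgeR adjusted p = 1.86e-06). DMSO was higher than both for this gene in means, at 2296, 1651 and 2456 CPM. AKR1C1 shares sequence with its paralogues, and 72.2% of its exon reads were unique.

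AKR1B10, another aldo-keto reductase, was at 314, 245 and 299 CPM at 25 µM and 463, 317 and 376 CPM at 250 µM, a rise of 0.42 without overlap. NQO1, a quinone reductase, rose by 0.18 and GCLM, a subunit of the enzyme that begins glutathione synthesis, by 0.24. EPHX1, an epoxide hydrolase, rose by 0.38. HMOX1, haem oxygenase, was the exception and fell by 0.36, from 42.6, 46.5 and 39.0 to 29.1, 38.1 and 31.7 CPM (edgeR adjusted p = 0.00207). NFE2L2, which encodes NRF2, had a log2 fold change of -0.01 (edgeR adjusted p = 0.960). Without replicate 1 of either concentration, 8 of the NRF2 targets rose.

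GCLM is shown because its window holds TGACNNNGC, the antioxidant response element core, in capitals here as its reverse complement. RefSeq places it on the minus strand of GRCh38.p14 chr1:93909431-93909680.
GCLM: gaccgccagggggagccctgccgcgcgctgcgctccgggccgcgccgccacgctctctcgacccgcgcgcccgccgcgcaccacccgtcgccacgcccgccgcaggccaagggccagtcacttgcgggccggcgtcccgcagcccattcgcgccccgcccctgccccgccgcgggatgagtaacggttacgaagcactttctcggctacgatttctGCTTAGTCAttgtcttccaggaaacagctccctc
The letters were in 11% of all promoters, in 12.3% of tested genes with a window, in 6 of 28 list members and in 2 of the 12 called members with a window.

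Genes of bile acid handling moved in both directions. NR1H4, which encodes the bile acid receptor FXR (hg19 chr12:100867486-100958191), was at 35.6, 28.1 and 38.6 CPM at 25 µM and 59.0, 42.6 and 52.6 CPM at 250 µM (0.57 ± 0.06, edgeR adjusted p = 3.95e-05). Of the 2 subunits of the bile acid exporter, SLC51B rose by 0.57 and SLC51A fell by 0.99. SLC51B was at 8.95, 5.85 and 8.75 CPM and then 12.3, 9 and 13.5 CPM, and SLC51A was at 6.47, 17.0 and 7.53 CPM and then 2.55, 5.70 and 5.63 CPM, both without overlap. Hence the 2 subunits of 1 transporter went opposite ways. KLB, a co-receptor for the hormone FGF19, rose by 0.37. Of 26 transporter and bile acid genes, 4 rose and 1 fell, 16 were positive, and the median was 0.03.

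Of 19 cytochrome P450 list genes 4 rose and 0 fell, 13 were positive, and the median was 0.07. Over all genes tested, 2.96% were called higher at 250 µM and 3.90% higher at 25 µM. CYP3A7, the fetal liver form, rose by 0.65 from 5.62, 4.05 and 5.22 CPM to 9.39, 6 and 8.09 CPM. CYP1A1, a target of the aryl hydrocarbon receptor, was at 3.71, 2.59 and 4.68 CPM and 9.53, 3.30 and 5.06 CPM and did not pass (0.60 ± 0.23, edgeR adjusted p = 0.141). Without replicate 1 of either concentration, 1 gene of the list rose.

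Lists of liver proteins differed from each other. Of 35 genes of hepatocyte identity and secreted proteins, 1 rose and 5 fell, 17 were positive, and the median was 0.00. Of 25 coagulation genes, 7 fell and 0 rose, 19 were negative and 6 positive, and the median was -0.14. Among those that fell were F10, a clotting protease, by 0.30 and FGG, a fibrinogen chain, by 0.29. Of 30 complement and acute phase genes, 7 fell and 3 rose, 13 were positive, and with library totals alone 4 fell and 3 rose. CP, ceruloplasmin, which binds copper, was at 1983, 2266 and 2040 CPM at 25 µM and 1431, 1746 and 1717 CPM at 250 µM (-0.36 ± 0.05, edgeR adjusted p = 0.000153). A2M, a protease inhibitor, went the other way, from 6829, 4907 and 5970 CPM to 9076, 5907 and 7626 CPM (0.34 ± 0.05). Of 27 apolipoprotein and lipoprotein genes, 8 fell and 2 rose, 20 were negative and 7 positive, and the median was -0.12. MTTP, which loads lipid onto apolipoprotein B, was at -0.35, and APOC3 at -0.27. ALB, albumin, and APOA1 did not pass (0.09 and -0.03).

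Of 16 genes of the IGF system 3 fell and 0 rose, and of 38 matrix genes 12 fell and 1 rose. In the IGF list 5 were positive and the median was -0.12, and in the matrix list 7 were positive and the median was -0.10. IGF2, a fetal growth factor, was at 5075, 7038 and 5579 CPM at 25 µM and 3141, 5033 and 4118 CPM at 250 µM (-0.54 ± 0.05, edgeR adjusted p = 1.06e-05). IGFBP2 fell by 0.46, and IGFBP3 was the other IGF system gene that fell. MATN3, a matrix protein, fell by 0.40, and FHL2, a LIM-domain cofactor outside that list, by 0.39. The immediate early and growth response list was mixed: of 34 tested, 3 rose and 5 fell, 20 were positive, and the median was 0.03. From that list CYR61, a matricellular protein, fell by 0.56 and EGR1, an immediate early transcription factor, rose by 0.60. Without replicate 1 of either concentration 7 matrix genes fell.

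Some lists had a called share below the background of 6.87%. They included nuclear OXPHOS, with 1 of 77 genes higher and 1 lower, S phase, with 2 of 48 lower, and the circadian clock, with 0 of 18 in either direction. A low called share did not mean an even split: 36 S phase genes were negative and 12 positive, with a median of -0.11. For nuclear OXPHOS 44 were negative and 33 positive, with a median of -0.01. NDUFC2, the OXPHOS gene that was higher, had 16.3% unique exon reads, so its value is uncertain. Of 54 G2/M genes 6 fell, among them the kinetochore motor CENPE by 0.38, but 2 fell with library totals alone and 0 with total gene reads. MKI67, a proliferation marker, did not pass (-0.11, edgeR adjusted p = 0.149). Of 83 ribosomal protein genes 16 fell, 76 were negative and 7 positive, and the median was -0.08. Among the 4 called ones with the smallest p, unique exon reads made up 5.49% for RPL36A, 5.04% for RPL39 and 6.57% for RPL41. For RPL26 they made up 52.3%. Values with so few unique reads are uncertain. The count of 16 was 2 or 3 without replicate 1 or 2 of either concentration and 41 without replicate 3 of either. Of 13 mitochondrially encoded genes 0 were called, though 11 were positive and 2 negative, with a median of 0.12. Without replicate 3 of either concentration, 10 rose.

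**Figure D3:**
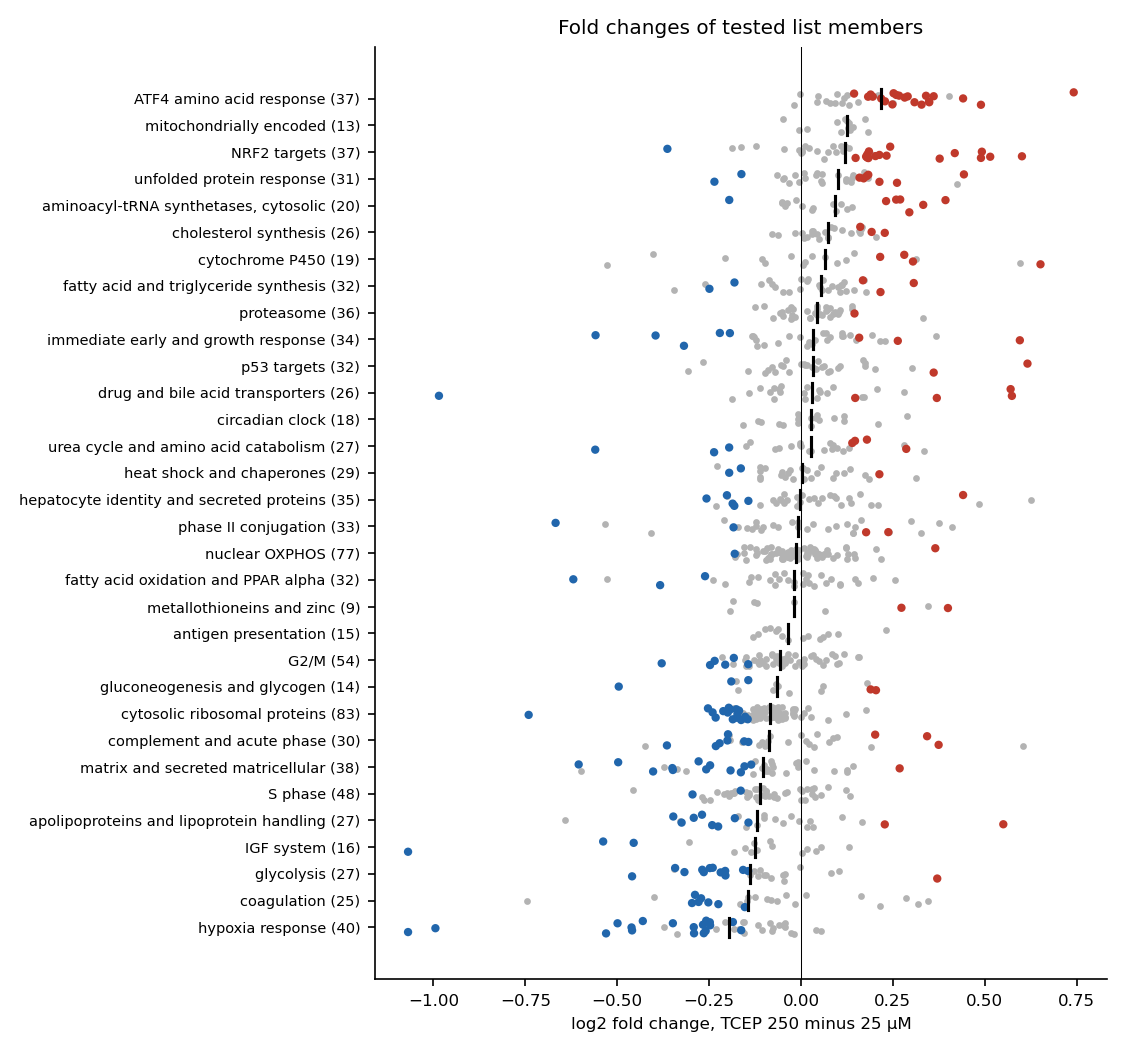
Each row is a gene list with the number of members tested in parentheses, each point a member's log2 fold change (250 minus 25 µM; red or blue where called, grey where not) and each black bar the list median. The ATF4 list has its median at 0.22 and the hypoxia list at -0.20.

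The solvent libraries add another level, though the fit did not use them. Of the 365 genes higher at 250 µM, the DMSO mean lay above both TCEP means for 206, between them for 146 and below both for 13. Of the 481 genes higher at 25 µM, it lay below both for 287, between them for 183 and above both for 11. In log2 terms DMSO was nearer to 250 µM than to 25 µM for 300 of the 365 and 420 of the 481, against 62.7% of all genes tested. The ATF4 list differed in position: DMSO was below both for 20 of 37 genes and nearer to 250 µM for 9. For the NRF2 list it was above both for 24 of 37, and for the hypoxia list below both for 22 of 40. Over all genes tested DMSO was below both for 36.4%, between them for 28.2% and above both for 35.4%. These positions are descriptions of group means and were not tested.

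**Figure D4:**
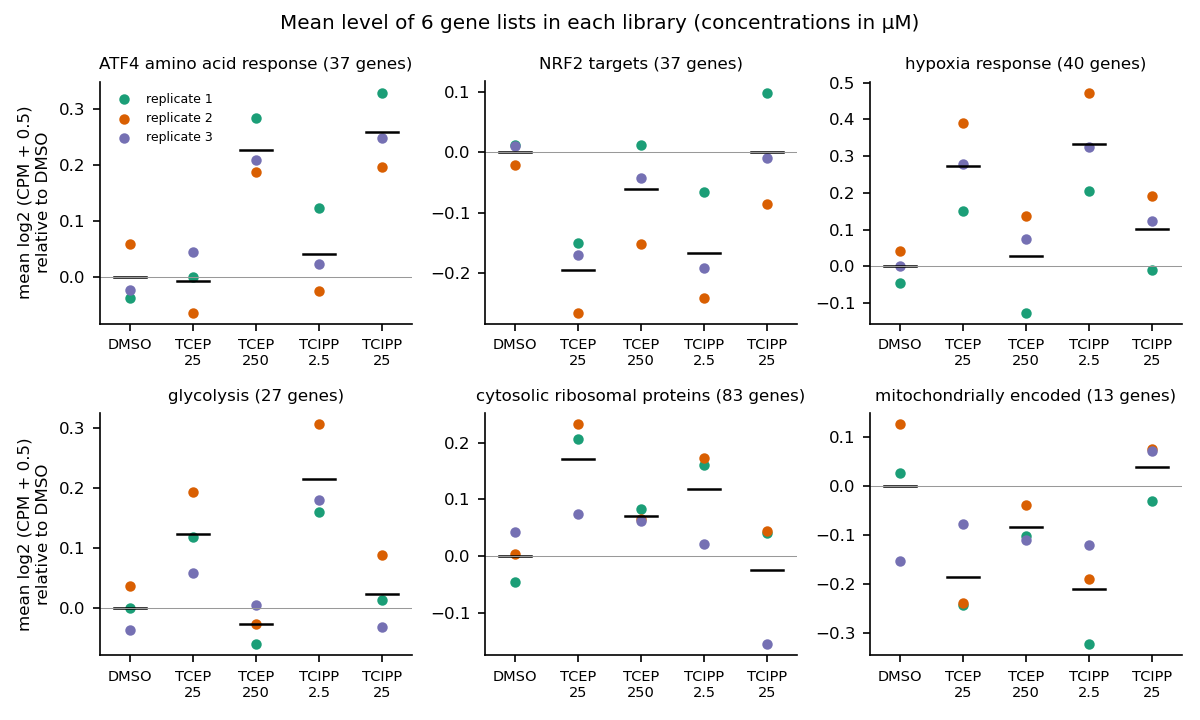
Mean log2 (CPM + 0.5) of the tested members of 6 lists in each of the 15 libraries, relative to the mean of the DMSO libraries, with points coloured by replicate number and black bars for group means. For the ATF4 list all 3 libraries at 250 µM (0.19 to 0.28) lay above the 3 at 25 µM (-0.06 to 0.04), and for the hypoxia list replicate 2 was highest in every group.

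The TCIPP libraries offer a second 10-fold step, 25 against 2.5 µM, at other concentrations and with no library shared. Of 12510 genes, 1056 (8.44%) passed for TCIPP, 477 (3.81%) higher at 25 µM and 579 (4.63%) higher at 2.5 µM. Of the 846 TCEP genes, 477 also passed for TCIPP, which is 56.4% of the TCEP calls and 45.2% of the TCIPP calls, and 475 of these had the same sign. Across 12303 genes the 2 sets of fold changes had r = 0.41, as a description, since the genes are not independent and the replicate numbers recur in both steps. HOXD1, a homeobox transcription factor, rose by 0.96 for TCEP, from 18.3, 10.9 and 18.4 CPM to 42.0, 19.1 and 33.0 CPM, and by 1.22 for TCIPP. IGFBP3 fell by 1.07 and 1.23, AKR1C1 rose by 0.60 and 0.71, and ASNS rose by 0.31 and 0.20.

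A test of the difference between the steps called 0 of 12510 genes in edgeR, with 784 (6.27%) at an unadjusted p under 0.05 and 689 by limma-voom, which also called 0. The smallest adjusted p in edgeR was 0.181. NAGLU, a lysosomal enzyme, rose by 0.59 for TCEP and was at -0.27 for TCIPP without passing there. PPFIA4, a scaffold protein in the hypoxia list, fell by 0.99 for TCEP and was at -0.33 for TCIPP. For these genes too the difference did not pass, which does not show that the compounds act alike. Leaving out 1 library gave 0 to 3 calls, among them ZFP91 without replicate 2 of either TCEP group, TUBB3_2 without replicate 1 of either TCIPP group, and CLN3_1 without replicate 2 of either TCIPP group.

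**Figure D5:**
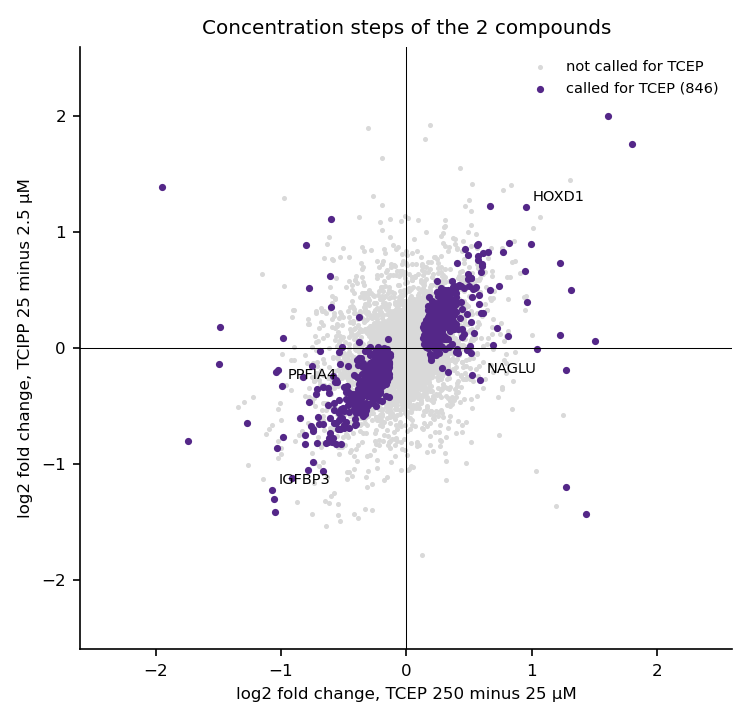
Log2 fold change of each gene in the TCEP step (x axis, 250 minus 25 µM) and the TCIPP step (y axis, 25 minus 2.5 µM), with the 846 genes called for TCEP in purple. Most purple points lie in the lower left and upper right: 344 of the 365 genes higher at 250 µM TCEP were also positive for TCIPP.

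Other named genes with large changes had low to moderate levels. PTAFR, the platelet-activating factor receptor, fell by 0.91 from 15.8, 27.7 and 22.0 CPM to 6.84, 15.8 and 12.3 CPM. LOXL3, a lysyl oxidase relative, fell by 1.06 from 9.81, 18.5 and 12.1 CPM to 4.29, 6.60 and 7.28 CPM, and AXL, a receptor tyrosine kinase, by 0.70. FAM69C fell by 1.27 but from only 2.00, 4.50 and 2.98 CPM. Among genes that rose, SLC2A6, a sugar transporter relative, changed by 0.72, and C19orf80, a secreted regulator of lipoprotein lipase, by 0.55. Of the 21 genes past 2-fold, those with under 50% unique exon reads numbered 9 of 10 among the rises and 6 of 11 among the falls, so overlapping or near-identical genes make these values uncertain.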

How the data were processed

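PolyA RNA of 15 HepG2 cultures was sequenced. The authors aligned reads to hg19 (GRCh37), per the submitters' processing notes, and deposited 1 table per library. Its exon read counts are not normalized, per the file headers. The RPKM values deposited by the authors were not used in a test. The quantile-normalized signal deposited by the authors entered 1 alternative, as log2 (value + 1), with a mean of at least 10. The sources used here do not say whether counting used strand, so a gene and its antisense partner cannot be told apart. Gene starts were raised by 1, since 86.4% of the 41552 genes whose end matched the annotation started 1 base lower in the files.

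Total exon reads of the 6 TCEP libraries were filtered with filterByExpr, scaled with TMM and fitted in edgeR 4.0.16 (R 4.3.3, limma 3.58.1) by quasi-likelihood with group and replicate number, adjusted by Benjamini-Hochberg over 12321 genes. Standard errors (SE) were obtained by dividing the size of the log2 fold change by the square root of F. CPM used TMM factors of all 15 libraries. The TCIPP step and the step difference were fitted on the 12 TCEP and TCIPP libraries with the block within compound. The median half-width of a 95% interval was 0.17 on the log2 scale. DESeq2 1.42.0 was an alternative. The procedure was tested on simulated data, where recovered genes had the right direction. In the run kept, 58% of genes changed 1.3-fold were recovered, 76% at 1.5-fold and 96% at 2-fold. Smaller changes, which most called genes had, were not simulated. In that run 18 of 182 calls were false, well above the nominal level, as was the share in most other runs. Thus more of the 846 calls may be false than the threshold states.

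Replicate numbers pair the samples: deviations from group means over 12567 genes correlated at 0.20, 0.29 and 0.20 for same-numbered TCEP libraries and at -0.17 to -0.01 for others. Deviations cancel within a group, so the negative values follow from the positive ones and are not separate evidence. The labels do not say what a number shares.

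Genes were named by rule: up to 15 per direction with the largest change among called genes (mean of at least 1 CPM, no overlap, 1 sign in 3 pairs, at least 50% unique reads), up to 4 called members per list with the smallest p, and a fixed set, of which CYP3A4 did not pass the filter. Further list members, and the motifs, were chosen after their values were seen. Members and the 38 lists were chosen with earlier results of these data known, and 997 list genes were tested. Promoter windows were RefSeq's, 1 per symbol, for 9625 of the tested genes. Some genes called with 1 library left out are not reported here.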

Additional observations from a re-analysis of the deposited data

How the results depend on the processing

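Directions of the 846 called genes held under every alternative that used total exon reads, total gene reads or quantile-normalized values, where the gene was tested. With unique exon reads 811 of the 814 still tested kept theirs. All alternatives reused the same libraries, so a kept direction is no separate support for a call. Without the replicate block, edgeR called 0 genes (0 higher at 250 µM, 0 higher at 25 µM) over the 6 libraries, with 1173 at an unadjusted p under 0.05, and 0 over all 15 libraries without the replicate block, with 900. With the replicate block shared over all 15 libraries it called 185, 67 higher at 250 µM and 118 higher at 25 µM. Total gene reads gave 527 (212 and 315), and DESeq2 with the block gave 229 (80 and 149). A block within compound over all 15 libraries, added after seeing the data, gave 649 (294 and 355). Leaving out 1 library gave 436 to 961 calls, 181 to 435 higher at 250 µM and 255 to 536 higher at 25 µM, and the library left out leaves its partner alone in its block. The difference between the TCEP and TCIPP steps gave 0 to 3 calls when 1 library was left out, and 0 without the block, with 222 at an unadjusted p under 0.05. HMGCS1, a cholesterol synthesis enzyme at 0.00, changed sign with unique exon reads (-0.023) and total gene reads (-0.0025), and ranged from -0.019 to 0.028 with 1 library left out. The cause of these differences was not tested. Of 140 named genes, 133 no longer passed without the block, and the 7 that had not passed before did not pass either. Some list counts moved with the read type or tool: with total gene reads 2 unfolded protein response genes rose, 3 ribosomal protein genes and 6 glycolysis genes fell, and with DESeq2 1 unfolded protein response gene and 0 cytochrome P450 genes rose. The ATF4 list kept 14 to 23 rises and the hypoxia list 13 to 19 falls under every alternative with a replicate block other than the block shared over all 15 libraries, where 9 ATF4 genes rose and 14 hypoxia genes fell.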

Other observations

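Carriers outside the naming rule, chosen after their values were seen, held some of the widest differences. The 25 and 250 µM groups overlapped for each carrier given here. SLC6A12, a betaine and GABA transporter, was at 6.28, 0.787 and 4.14 CPM at 25 µM and 22.1, 2.85 and 10.6 CPM at 250 µM, a log2 fold change of 1.61 ± 0.16 (edgeR adjusted p = 1.13e-05). In DMSO it was at 23.8, 9.41 and 35.2 CPM, and replicate 2 was the lowest library of each of these groups. SLC6A14, an amino acid transporter, was at 45.4, 25.1 and 44.4 CPM and then 86.0, 38.3 and 63.0 CPM, a rise of 0.67. SLC16A6, a monocarboxylate transporter relative, fell by 1.05, from 17.4, 75.4 and 35.5 CPM to 12.2, 37.5 and 14.5 CPM, with 29.2% of its exon reads unique.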
